A study of Mus musculus with 4 samples.

Results

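Genes of macrophages and microglia, with those of a pair of ligands, were read across the tissue spots of mouse embryo heads at embryonic day (E) 14.5 and E15.5. They were picked by symbol and number 10 of the 19465 genes in the feature list: the receptor gene Csf1r with its ligand genes Csf1 and Il34, the complement genes C1qa, C1qb and C1qc, the surface protein genes Adgre1, Cx3cr1 and Mrc1, and the lysozyme gene Lyz2. Each of the 10 symbols was listed once.

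Wild-type C57BL/6 heads were fixed in formalin, embedded in paraffin and cut coronally through the middle of the palate, and spatial RNA sequencing (Visium) was run on 4 capture areas. A spot is a barcoded disc of the slide that can hold several cells or parts of cells of different types. At each stage, 1 area held replicate 1, a single section, and the other area held 3 sections, labelled replicates 2, 3 and 4, which shared a library. The count tables therefore gave 2 areas a stage, and the areas, not the spots or sections, were the replicates of every test below. No treatment or genotype was varied. Values for the 4 areas are given in one order throughout: E14.5 single-section, E14.5 3-section, E15.5 single-section and E15.5 3-section.

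Macrophages are phagocytes that settle in nearly all embryonic tissues, and microglia are the macrophages of the brain parenchyma. Both depend on the receptor CSF1R, which is bound by CSF1 and by IL-34. IL-34 is known chiefly from neurons and from keratinocytes. C1qa, C1qb and C1qc encode the chains of C1q, the recognition protein of the classical complement pathway, which tissue macrophages make in large amounts. Cx3cr1 encodes the fractalkine receptor, Adgre1 the F4/80 antigen, and Mrc1 the mannose receptor CD206, which is known from macrophages of connective tissue and of the brain's borders and is low in parenchymal microglia.

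The files held 1106, 2310, 989 and 1952 tissue spots with counts (6357 in all). Total unique molecular identifiers (UMIs), each counted as 1 captured molecule, came to 15438992 in the shallowest area and 109127953 in the deepest. The median was 6752 UMIs per spot in the E14.5 single-section area, against 45059 to 64051 in the others, and 1 section of the E14.5 3-section area was also shallow (10038). Levels are therefore given as counts per 1000000 UMIs (CPM), and intervals on single values are exact Poisson or binomial 95% intervals that cover counting error only. At these depths a count of 0 allowed a level of up to 0.194 CPM in the shallowest area and 0.0275 CPM in the deepest.

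Beside the members, 18 other macrophage genes (the core list) were counted. All 18 were detected, with 71210 UMIs between them, among them Laptm5, Fcer1g and Cd68. Detection alone does not tie the members' counts to macrophages. All 9 listed genes of a list not expected in the fetal head were detected too, with 183 UMIs. Among lists of other blood cells, mast cell genes were abundant (71789 UMIs over 6 genes), genes of neutrophils and monocytes fewer (8317 UMIs over 9 listed genes), and lymphocyte genes nearly undetected (401 UMIs over 7 genes).

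Over the 4 areas, 15100 UMIs were counted for C1qc, 12799 for C1qb, 11812 for C1qa, 10116 for Mrc1, 8250 for Csf1r, 3440 for Cx3cr1, 769 for Csf1, 558 for Adgre1 and 457 for Il34. These counts rank how well each gene was measured and not how highly it was expressed, since capture differs between genes. Lyz2 was counted 37 times in all (1, 7, 15 and 14 UMIs). Zp3 and Zp2, egg coat genes not expected in a fetal head, were counted 88 and 40 times, so the Lyz2 counts lay within the range of such genes and no pattern was read from them. Lyz2 also lies beside its near-identical copy Lyz1, which has a row of its own, so that its few counts are uncertain in source.

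The 3 C1q genes sit in a cluster of 18.7 kilobases on the minus strand of chromosome 4 (mouse build GRCm38): C1qb at chr4:136880129-136886187, C1qc at chr4:136889804-136893065 and C1qa at chr4:136895917-136898803. Mrc1 spans chr2:14229392-14332057 on the plus strand. Other members were annotated at chr3:107741048-107760469 (Csf1), chr8:110741829-110805924 (Il34), chr9:119901616-120069879 (Cx3cr1), chr17:57358691-57483527 (Adgre1) and chr10:117277331-117282321 (Lyz2). The annotated span of Cx3cr1 overlapped 9 other genes, that of Csf1r 2, that of Il34 2 and that of Mrc1 1 (Mir511).

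The upstream sequences of C1qb and C1qc, neighbours with like patterns over the head, and of Mrc1, whose pattern differed in the brain, are shown for comparison. They are RefSeq sequence of build GRCm38.p6 that ends before the first annotated transcribed base, at chr4:136886201-136886450 (minus strand), chr4:136893066-136893164 (minus strand) and chr2:14229164-14229391 (plus strand). Capitals mark the letters GAGGAAG, the core bound by the macrophage factor PU.1, on either strand.
C1qb: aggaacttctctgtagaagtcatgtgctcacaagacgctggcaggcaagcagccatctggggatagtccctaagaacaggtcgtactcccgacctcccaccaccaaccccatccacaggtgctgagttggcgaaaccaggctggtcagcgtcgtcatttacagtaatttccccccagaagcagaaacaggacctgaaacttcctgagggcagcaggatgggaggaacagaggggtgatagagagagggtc
C1qc: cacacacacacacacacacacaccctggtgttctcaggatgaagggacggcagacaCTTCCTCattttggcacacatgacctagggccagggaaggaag
Mrc1: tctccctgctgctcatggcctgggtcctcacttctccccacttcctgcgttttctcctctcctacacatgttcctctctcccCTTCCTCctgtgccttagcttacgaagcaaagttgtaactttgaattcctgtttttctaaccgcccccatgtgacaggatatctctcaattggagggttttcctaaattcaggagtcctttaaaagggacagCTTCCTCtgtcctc
The Mrc1 stretch (228 bases) held 2 matches, that of C1qc (99 bases) 1 and that of C1qb (250 bases) 0. These stretches differ in length, so their counts cannot be compared with each other or with the longer windows below. Of 32851 RefSeq windows from 250 bases before to 50 after a start, 13.6% held these letters on either strand. RefSeq windows were present for 6 members (C1qb, C1qc, Cx3cr1, Mrc1, Lyz2 and Csf1), and the windows of C1qc and Mrc1 held the letters.

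Each tissue spot was assigned to the region whose marker genes it expressed most strongly, which placed all but 218 spots in 14 regions. The brain was taken as the spots led by forebrain neuron or radial glia markers, 1499 in all. Brain spots made up 23.4%, 28.6%, 29.3% and 14.8% of the spots, and 56.6%, 28.3%, 29.2% and 9.54% of the UMIs. In the E14.5 single-section area the brain was much deeper than the rest (median 28488 against 4119 UMIs per spot). In the E15.5 3-section area it was shallower (21772 against 47914). The sections of that area held 217, 3 and 69 brain spots, so its brain and other tissue came from the sections in unlike shares. Of the brain spots, 10.0%, 5.60%, 15.9% and 4.84% lay outside the largest connected block of their section, in small patches such as those at the sides of the head in the map of the E15.5 single-section area.

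The macrophage genes were lower in the brain than in the rest of the head. Of the 9 members with enough counts for the test, 8 were lower in brain spots (adjusted p under 0.1), in data where 41.2% of 14894 genes were lower and 78% differed in one direction or the other. The contrast between brain and other tissue is thus so broad that the direction and size of each member, more than its call, carry the description. The median log2 difference of the 9 members was -0.98, against -0.05 over all genes tested. In spots, fewer macrophages and less RNA of a gene per macrophage cannot be told apart.

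Csf1r, the receptor gene, was at 16.7, 13.9, 17.9 and 18.1 CPM in the brain. Outside it, Csf1r was at 30.9, 29.2, 30.5 and 39.9 CPM. Every area had the lower level in the brain, and the 2 sets of values did not overlap; the log2 difference was -0.87 ± 0.11 (SE, n = 4 areas, adjusted p = 0.000271).

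The C1q genes followed the receptor. C1qb was at 27.7, 23.7, 26.7 and 23.4 CPM in the brain against 63.2, 51.3, 48.4 and 54.0 CPM outside. C1qc was at 37.3, 31.8, 35.3 and 34.4 CPM in the brain against 61.0, 59.7, 50.1 and 66.2 CPM outside. C1qa was at 18.5, 18.7, 22.9 and 27.2 CPM in the brain against 61.9, 41.8, 42.3 and 58.2 CPM outside. No brain value of a C1q gene reached any value outside the brain. The log2 differences were -1.11 ± 0.13 for C1qa, -0.99 ± 0.09 for C1qb and -0.67 ± 0.10 for C1qc, with adjusted p of 0.000239, 7.12e-05 and 0.000904.

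Mrc1 showed the largest difference of the members. It was at 13.1, 12.98, 14.6 and 13.6 CPM in the brain and at 41.0, 35.7, 42.6 and 50.9 CPM outside. The brain values were nearly alike in all 4 areas. The log2 difference was -1.53 ± 0.10 (adjusted p = 1.79e-05). Cx3cr1, widely used as a marker of microglia, was also lower in the brain, at 7.79, 5.24, 10.5 and 7.29 CPM against 14.8, 10.1, 18.1 and 14.7 CPM. In each area the Cx3cr1 level in the brain was below that outside it, although the highest brain value passed the lowest outside value, and the log2 difference was -0.82 ± 0.11 (adjusted p = 0.00055). Adgre1 was sparse, at 1.26, 1.49, 0.815 and 0.706 CPM in the brain and 2.68, 1.73, 2.56 and 2.53 CPM outside (log2 difference -0.98 ± 0.32, adjusted p = 0.0259). The Adgre1 call was lost without the E15.5 single-section area (adjusted p = 0.101).

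The ligand genes parted. Csf1, which encodes the ligand made by many stromal cells, was at 1.603, 1.17, 1.58 and 1.06 CPM in the brain and 2.83, 2.30, 4.00 and 3.58 CPM outside (log2 difference -1.13 ± 0.22, adjusted p = 0.00303). Il34 was at 2.29, 1.49, 1.32 and 1.76 CPM in the brain and 1.64, 1.304, 2.03 and 1.74 CPM outside. These Il34 values overlapped, with a log2 difference of 0.07 ± 0.24 (adjusted p = 0.819).

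**Figure D1:**
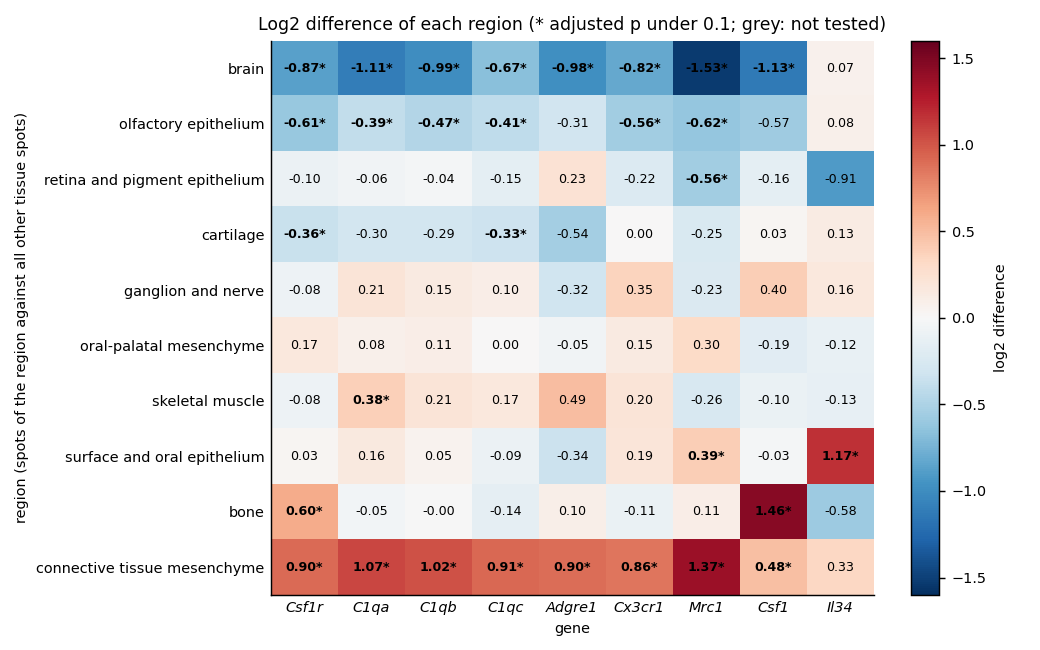
Log2 difference of 9 member genes (columns) between the spots of each region and all other tissue spots (rows), from the edgeR fit over capture areas; red is higher in the region, blue lower, and a star marks adjusted p under 0.1. The brain row is blue for 8 genes and near 0 for Il34, the connective tissue row is red for all, and Csf1 (1.46) and Il34 (1.17) stand out in the bone and the epithelium row.

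The other lists moved with the members or parted from them as follows. All 18 core macrophage genes were lower in the brain (median log2 difference -1.26), among them Laptm5 (-1.05), Fcer1g (-1.44) and Cd68 (-0.81). Of the 10 genes of tissue and border macrophages tested, 8 were lower (median -1.38), led in counts by the scavenger receptor gene Stab1 (-1.42) and the endocytic adaptor gene Dab2 (-2.004). All 14 complement genes tested were lower, but that list includes the members C1qa, C1qb and C1qc. Genes of other cell types fell with them: all 6 endothelial genes were lower (median -0.96) and 4 of 5 mast cell genes (median -3.52), Kit being the exception. The summed endothelial level was 118 to 146 CPM in the brain and 246 to 303 CPM outside, and the summed mast cell level 94.2 to 124 CPM and 229 to 359 CPM. Most of the mast cell sum in the brain was Kit, which neural cells also express. Kit gave 5750 UMIs there, against 964 for Cma1, 307 for Tpsb2 and 99 for Cpa3. Zp3, from the list not expected in the fetal head, was lower as well (-1.78 ± 0.61, adjusted p = 0.032). The part of the endothelial and mast cell genes in the difference of the members was not tested.

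Microglia genes split in both directions. Of 9 genes, 4 were higher in the brain and 4 lower, with P2ry13 not called. P2ry12, the purinergic receptor of resting microglia, was higher by 1.39 ± 0.20 on the log2 scale and Sall1, a transcription factor of microglia that neural progenitors also express, by 2.51 ± 0.29. Fcrls was at -0.66 ± 0.14, and Tmem119, which bone-forming cells also express, at -2.62 ± 0.14. Siglech (1.54 ± 0.25) and Gpr34 (0.65 ± 0.27) were the other genes higher in the brain; these and the genes Olfml3 (-2.18) and Slc2a5 (-0.89) were named after their values were seen. P2ry12 in the brain stood at 175% to 320% of its level outside it, per area.

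Spots capture some RNA that spread from neighbouring tissue, so the brain levels were set beside those of the mast cell and osteoclast lists. Deep in the brain, more than 3.1 spot spacings from any other tissue, Cma1 and Tpsb2 of mast cells were at 2.45% to 12.04% and 4.00% to 9.35% of their level outside the brain. Cpa3 was at 4.65% to 10.2%, while Kit, which neural cells also express, was at 87.2% to 155%. Of the osteoclast genes, Acp5 was at 1.56% to 4.13%, Ctsk at 8.29% to 11.7%, Nfatc1 at 0 to 20.2%, Tnfrsf11a at 14.0% to 24.5% and Mmp9 at 18.7% to 33.8%. Nfatc1 was named after its values were seen. Csf1r was at 38.8% to 54.5%, C1qa at 22.4% to 44.3%, C1qb at 39.1% to 46.1%, C1qc at 51.5% to 61.2% and Cx3cr1 at 33.6% to 49.4% of the outside level in the same spots. The range of Mmp9 overlapped those of Cx3cr1 and C1qa. The range of C1qa also overlapped those of Tnfrsf11a and Mrc1. Mrc1 was at 8.53% to 27.5%, which overlapped the ranges of Cma1, Cpa3, Tpsb2, Ctsk, Nfatc1, Tnfrsf11a and Mmp9. The part of RNA spread in the brain levels was not tested.

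Within the brain, Mrc1 was higher at the edge than in the interior. Edge spots, of which there were 487, touch a spot outside the brain, and this comparison was added after the values had been seen. Mrc1 was at 26.5, 20.1, 28.2 and 22.6 CPM at the edge. Deep in the brain it was at 6.61, 9.82, 7.76 and 4.34 CPM. The edge values lay above the deep values in all areas without overlap. Edge against interior, the log2 difference of Mrc1 was 1.19 ± 0.16 (adjusted p = 0.00517), and it was 1.498 ± 0.23 (adjusted p = 0.0158) in the largest brain block of each section.

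Of 8 members tested between edge and interior, 5 were higher at the edge, where 17.4% of 13162 genes were and 33.3% differed in either direction. C1qa (0.52 ± 0.14), C1qc (0.48 ± 0.11), C1qb (0.44 ± 0.16) and Csf1r (0.43 ± 0.14) had adjusted p of 0.0428, 0.0231, 0.0855 and 0.0641. Only Mrc1 kept its call without the E15.5 single-section area (adjusted p = 0.0377); 3 members were called without the E14.5 3-section area and 2 without the E15.5 3-section area. In the largest blocks, Mrc1, C1qc and Csf1r were called, and C1qa (adjusted p = 0.141) and C1qb (0.117) were not. For Cx3cr1 the difference was 0.40 ± 0.21 (adjusted p = 0.191). Csf1 (0.33 ± 0.42) and Il34 (0.69 ± 0.42) were not called either. All 6 tested genes of tissue and border macrophages were higher at the edge (median 1.25), with Dab2 at 1.51, F13a1 at 1.25, Pf4 at 1.20 and Stab1 at 0.89. Genes of other cell types were higher at the edge as well: 3 of 6 endothelial genes (median 0.68 over the list; Cdh5 at 1.08 and Kdr at 0.87), 1 of 4 mast cell genes (Cma1 at 0.93) and 2 of 3 genes of neutrophils and monocytes (S100a9 at 2.45 and Camp at 2.58). Their part in the difference of the members was not tested.

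**Figure D2:**
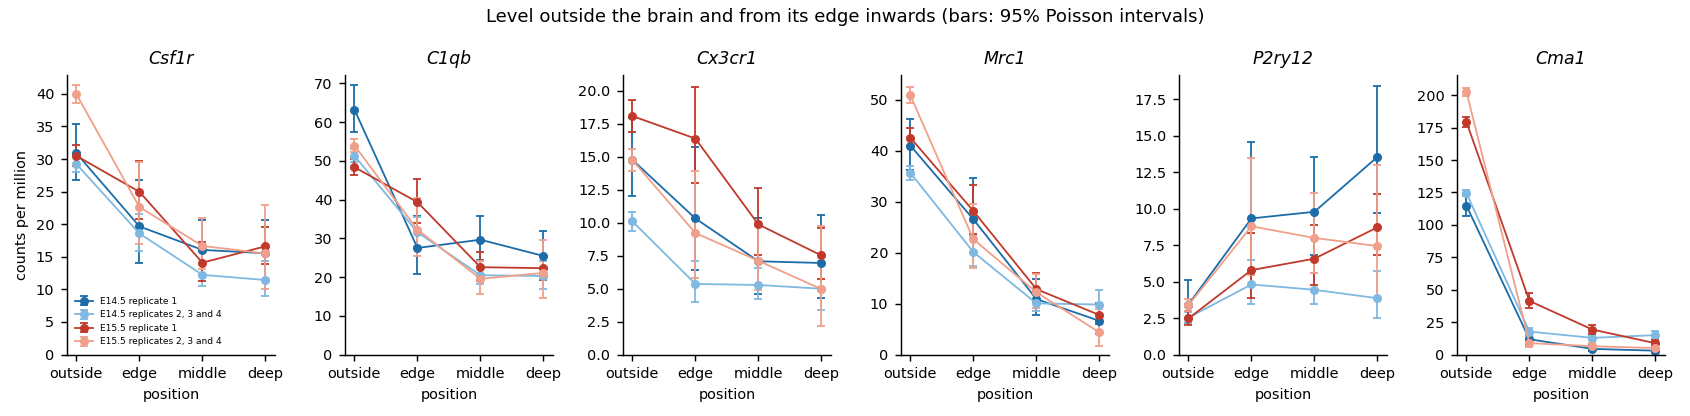
CPM (y axis) of Csf1r, C1qb, Cx3cr1 and Mrc1, with P2ry12 and Cma1 for comparison, outside the brain, at its edge, in its middle (up to 3.1 spot spacings from other tissue) and deep in it; each line is a capture area and bars are 95% Poisson intervals. Mrc1 falls from 35.7 to 50.9 CPM outside to 4.34 to 9.82 CPM deep in the brain, Csf1r and C1qb level off inside the brain, and P2ry12 is higher in the brain than outside.

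Scaled to the C1q genes together, Mrc1 parted from Cx3cr1 and Csf1r, the other members set out in this way. For each 100 UMIs of C1qa, C1qb and C1qc together, Mrc1 gave 22.0, 23.3, 30.2 and 28.5 UMIs outside the brain and 24.7, 21.4, 22.7 and 20.7 at its edge. Deep in the brain it gave 8.93, 14.1, 10.997 and 5.43. Cx3cr1 gave 7.93, 6.61, 12.9 and 8.27 outside the brain and 9.38, 7.18, 10.7 and 6.20 deep in it. Csf1r gave 16.6, 19.1, 21.7 and 22.4 outside and 21.0, 16.4, 23.5 and 19.4 deep. The deep values of Mrc1 lay below all of its outside values, while those of Cx3cr1 and Csf1r fell on both sides of theirs.

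**Figure D3:**
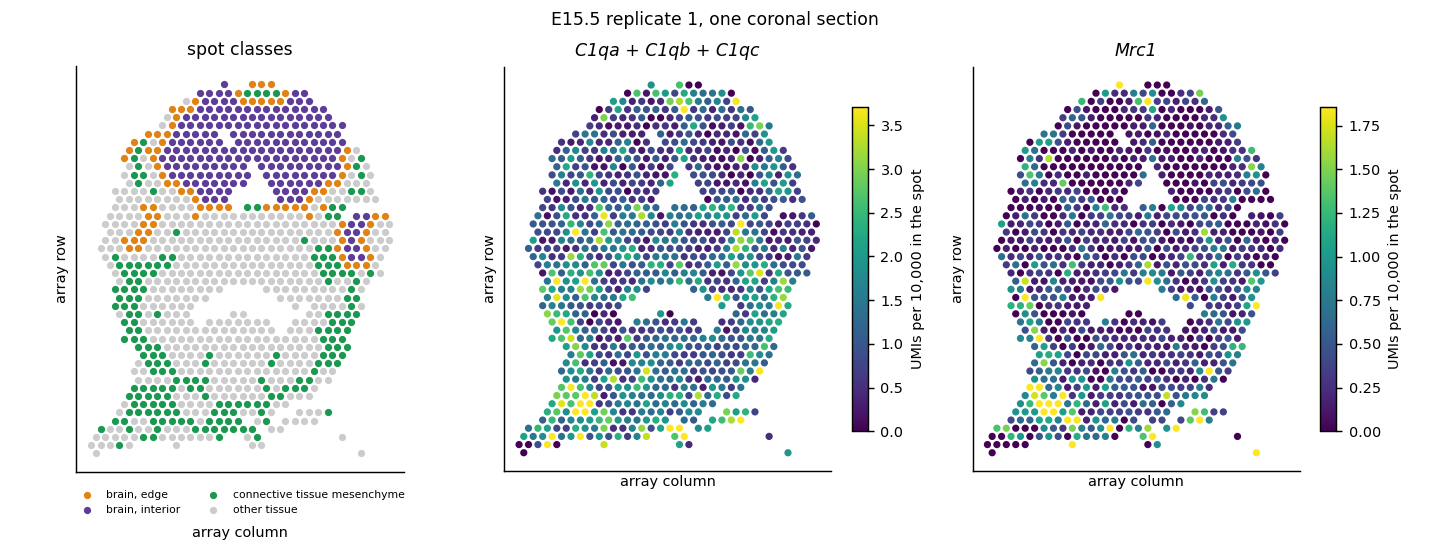
Tissue spots of the E15.5 single-section area, drawn by array row and column; the left map gives the spot classes, and the others the UMIs of the 3 C1q genes together and of Mrc1 per 10000 UMIs of the spot. Mrc1 has no UMI in 59.1% of the brain interior spots, 29.3% of the edge spots and 9.79% of the connective tissue spots.

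Inside the brain, Il34 separated neuron from progenitor territory. It was at 2.95, 1.73, 1.80 and 1.98 CPM in forebrain neuron spots and at 1.01, 0.206, 0.315 and 0.695 CPM in radial glia spots. The radial glia spots were assigned by progenitor markers and not by their position along the ventricle. The neuron values lay above the radial glia values without overlap, although the radial glia values rest on 3, 1, 2 and 1 UMIs. The log2 difference was 2.13 ± 0.46 (adjusted p = 0.00474), in a comparison added after the values were seen in which 29% of 12929 genes were higher in neuron spots and 58.8% differed in either direction. Mrc1 was at 16.6, 13.4, 17.7 and 15.7 CPM against 6.07, 10.9, 8.20 and 3.48 CPM (log2 difference 1.02 ± 0.24, adjusted p = 0.00643).

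In the same fit, 6 of 8 tested members were higher in neuron spots. Cx3cr1 (0.62 ± 0.22), C1qa (0.47 ± 0.16), Csf1r (0.40 ± 0.15) and C1qc (0.36 ± 0.16) had adjusted p between 0.038 and 0.0947, and 2 members were called without the E14.5 single-section area or without the E15.5 single-section area. C1qb (0.35 ± 0.16, adjusted p = 0.102) and Csf1 were not called. All 6 endothelial genes were tested and 5 were higher in neuron spots. The share of spots at the brain's edge was 36.5%, 33.2%, 27.2% and 26.2% for neurons and 25.4%, 54.7%, 31.5% and 36.6% for radial glia, and it was thus higher in radial glia in 3 of 4 areas.

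Outside the brain, connective tissue mesenchyme (spots led by Dcn, Lum, Dpt, Col3a1 and Pdgfra) had the highest levels of most members. Against all other tissue spots, 8 of 9 tested members were higher, where 29.7% of 14689 genes were and 59% differed in either direction. Mrc1 was at 53.1, 63.3, 70.4 and 78.4 CPM there (log2 difference 1.37 ± 0.08, adjusted p = 0.00019). Csf1r was at 39.8, 42.4, 41.3 and 54.6 CPM (0.90 ± 0.08, adjusted p = 0.000519). C1qa, C1qb and C1qc were higher by 1.07 ± 0.12, 1.02 ± 0.07 and 0.91 ± 0.07 on the log2 scale, Adgre1 by 0.90 ± 0.19 and Cx3cr1 by 0.86 ± 0.09, with adjusted p of at most 0.0115. Csf1 was higher by 0.48 ± 0.18 (adjusted p = 0.0608), a call that was lost without the E14.5 3-section area (adjusted p = 0.26) or the E15.5 single-section area (0.143). Il34 was at 1.81, 1.81, 1.85 and 2.25 CPM and was not called. All 18 core macrophage genes were higher in connective tissue, as were 9 of 10 genes of tissue and border macrophages. So were all 6 endothelial genes (median 0.71) and 4 of 5 mast cell genes (median 2.96), and their part in the members' levels was not tested. Zp3, not expected in a fetal head, was also higher in connective tissue (1.91 ± 0.37, adjusted p = 0.0086).

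Ordered by level, Csf1r ran from connective tissue (44.5 ± 6.82 CPM, SD, n = 4 areas) and bone (38.2 ± 6.56) through oral-palatal mesenchyme (31.5 ± 5.05), ganglion and nerve (31.2 ± 8.55, n = 3), surface and oral epithelium (27.5 ± 5.25), retina (25.4 ± 3.92), skeletal muscle (24.9 ± 2.53), cartilage (21.5 ± 3.52) and olfactory epithelium (20.8 ± 8.19, n = 3) to forebrain neurons (17.9 ± 2.71) and radial glia (13.3 ± 0.574). The ranges of neighbours in this order overlapped over the areas, except those of forebrain neurons and radial glia. Mrc1 had another order below connective tissue (66.3 ± 10.7 CPM), with surface and oral epithelium (45.6 ± 9.85) and oral-palatal mesenchyme (43.5 ± 5.50) next and bone (33.4 ± 5.36) below them. At the low end it also ended in forebrain neurons (15.8 ± 1.84) and radial glia (7.17 ± 3.16).

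In bone, the receptor and its ligand Csf1 were higher while the C1q genes were not. Csf1 was at 4.69, 3.58, 8.25 and 7.34 CPM in bone spots, on 2, 33, 34 and 80 UMIs. Its log2 difference from other tissue was 1.46 ± 0.19 (adjusted p = 0.000211). Csf1r was at 39.9, 37.7, 29.6 and 45.4 CPM (0.60 ± 0.11, adjusted p = 0.0018). These were 2 of 9 members, in a contrast where 23.7% of 14175 genes were higher and 53.2% differed in either direction. C1qa (-0.05 ± 0.12), C1qb (-0.00071 ± 0.09), C1qc (-0.14 ± 0.10), Mrc1 (0.11 ± 0.12), Cx3cr1 (-0.11 ± 0.15) and Adgre1 (0.10 ± 0.26) were not called there. Osteoclasts, the bone-resorbing cells, form from macrophage-lineage precursors and carry CSF1R; 8 of 9 osteoclast genes were higher in bone spots (median 3.19), including Acp5 (3.19 ± 0.13), Ctsk (2.26 ± 0.11), Mmp9 (3.26 ± 0.10) and Tnfrsf11a (1.28 ± 0.16). Over bone spots, 7 of 18 core macrophage genes were higher and 1 lower. All 6 endothelial genes were higher too (median 0.39), and their part was not tested.

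Il34 was higher in surface and oral epithelium, the keratinocyte territory, than in other tissue. It was at 0, 2.44, 4.69 and 3.51 CPM there, on 0, 9, 23 and 17 UMIs, so the shallow area gave no count. In the other areas the level lay above that of connective tissue. Against all other tissue, Il34 was higher by 1.17 ± 0.32 on the log2 scale (adjusted p = 0.0169), where 19.5% of 14069 genes were higher and 38.6% differed in either direction; without the E15.5 single-section area the difference was 0.88 with adjusted p = 0.187. Mrc1 was the other member higher in epithelium (0.39 ± 0.14, adjusted p = 0.0489), and its call was lost without either single-section area (adjusted p = 0.13 without E14.5 and 0.512 without E15.5). The mast cell genes Cpa3 (0.96), Mcpt4 (0.93), Cma1 (0.72) and Tpsb2 (0.68) were higher in these spots too, while Kit (-0.15) was not called. Their part in the difference of the members was not tested.

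**Figure D4:**
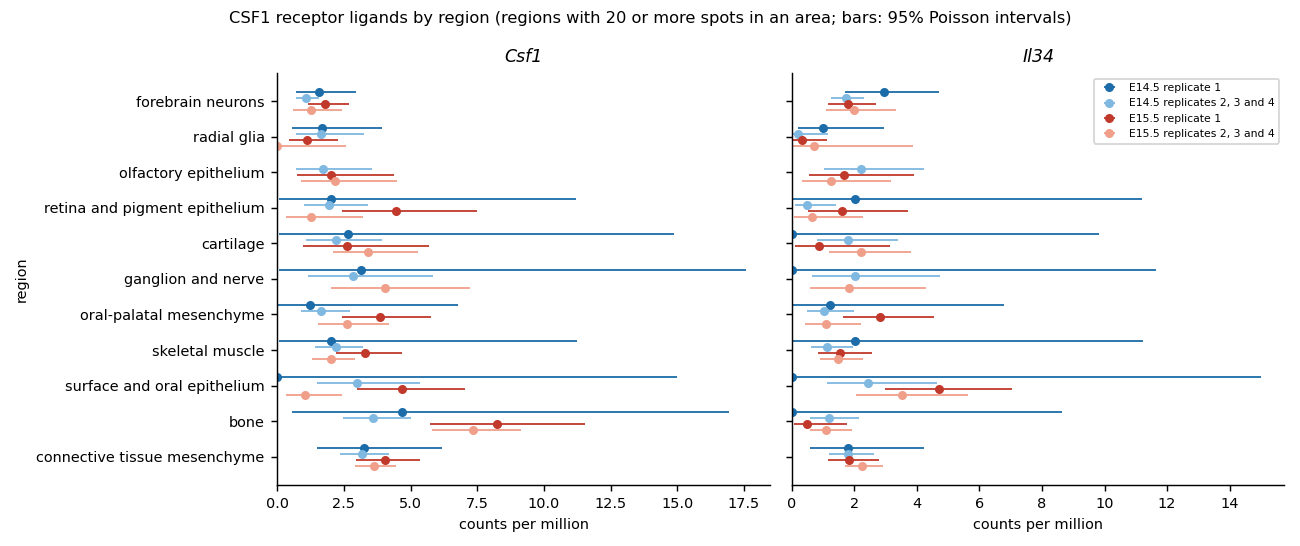
CPM of the ligand genes Csf1 (left) and Il34 (right) by region, with 1 point per capture area and 95% Poisson intervals. Among regions with at least 20 spots in an area, Csf1 is highest in bone in all 4 areas (3.58 to 8.25 CPM), Il34 is highest in surface and oral epithelium in all but the E14.5 single-section area (2.44 to 4.69 CPM), and Il34 is higher in forebrain neurons than in radial glia in all 4 areas.

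The remaining regions gave smaller differences. In olfactory epithelium, tested over 3 areas, Csf1r (-0.61 ± 0.13), Mrc1 (-0.62 ± 0.14), Cx3cr1 (-0.56 ± 0.16), C1qb (-0.47 ± 0.13), C1qc (-0.41 ± 0.10) and C1qa (-0.39 ± 0.10) were lower, 6 of 9 members where 18.9% of 15265 genes were and 37.4% differed in either direction; without the E15.5 single-section area all 6 calls were lost (adjusted p from 0.109 to 0.252). In cartilage, Csf1r (-0.36 ± 0.14, adjusted p = 0.096) and C1qc (-0.33 ± 0.13, adjusted p = 0.0993) were lower, where 15.6% of 14068 genes were and 28.4% differed in either direction, and both were lost without either E15.5 area (adjusted p from 0.24 to 0.53). Retina and pigment epithelium had Mrc1 lower (-0.56 ± 0.16, adjusted p = 0.0552), where 11% of genes were and 21% differed in either direction; the call was lost without the E14.5 3-section area (adjusted p = 0.1) or either E15.5 area (0.189 and 0.267). In skeletal muscle C1qa was the 1 member higher (0.38 ± 0.15, adjusted p = 0.0781), where 21.9% of genes were and 47.9% differed in either direction; it was lost without the E14.5 single-section area (adjusted p = 0.12), the E14.5 3-section area (0.199) or the E15.5 single-section area (0.22), and with library sizes not scaled by TMM (0.235). No member was called in oral-palatal mesenchyme or in ganglion and nerve, where 34% and 4.78% of genes were called in either direction.

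Shares of spots with a UMI depend on depth, so each spot was thinned to 5000 UMIs, and 484, 361, 5 and 12 shallower spots were left out. Csf1r was then detected in 9.16%, 12.7%, 14.3% and 15.5% of spots, against 21.7%, 53.2%, 73.1% and 69.1% before thinning. In connective tissue mesenchyme the thinned shares were 10.3%, 19.0%, 23.8% and 20.6%. Brain spots gave 9.24%, 7.48%, 11.4% and 8.77%. Lens fibres carry no macrophages, yet the lens spots of the 3-section areas (50 and 42 spots, median 46292 and 37713 UMIs) gave 14.0% (interval 5.82% to 26.7%) and 9.52% (2.66% to 22.6%). The brain shares fell below the lens shares in these areas and inside their intervals, so these shares alone did not set brain spots apart from lens spots. Connective tissue shares exceeded the lens shares in both areas but lay inside their intervals too.

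Between the stages no gene passed the test, members included. Over all tissue spots, 0 of 15609 genes were called by edgeR (percent called 0), 930 had an unadjusted p under 0.05, and DESeq2 called 28. None of the 10 members was among the calls of either tool. Several members were nonetheless higher in both E15.5 areas than in both E14.5 areas: Csf1r, Adgre1, Cx3cr1, Mrc1 and Csf1, 5 of 9 with Lyz2 left out for its low counts, where 24.9% of all tested genes were. In spots outside the brain this held for Mrc1 and Csf1 but not for Csf1r, Adgre1 and Cx3cr1. Cx3cr1 missed it narrowly there, at 14.75 CPM in the E15.5 3-section area against 14.77 CPM in the E14.5 single-section area. The share of all genes for which it held outside the brain was not counted, so these members cannot be set against it.

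Cx3cr1 stood at 10.8, 8.72, 15.9 and 14.0 CPM, a log2 difference of 0.56 ± 0.29 (unadjusted p = 0.0928, adjusted p = 0.769). Csf1 stood at 2.14, 1.98, 3.30 and 3.34 CPM (0.63 ± 0.38, adjusted p = 0.77). Mrc1 stood at 25.2, 29.3, 34.4 and 47.3 CPM (0.52 ± 0.28, adjusted p = 0.769) and Csf1r at 22.9, 24.9, 26.8 and 37.9 CPM (0.37 ± 0.28, adjusted p = 0.779). The 3-section area was the higher of the E15.5 areas for Mrc1 and Csf1r. C1qa was at 37.4, 35.2, 36.6 and 55.2 CPM, C1qb at 43.1, 43.5, 42.1 and 51.1 CPM and C1qc at 47.6, 51.8, 45.8 and 63.2 CPM, so that the E15.5 single-section area was near or below the E14.5 levels and the E15.5 3-section area above them. Il34, at 2.01, 1.36, 1.83 and 1.74 CPM, overlapped between the stages.

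**Figure D5:**
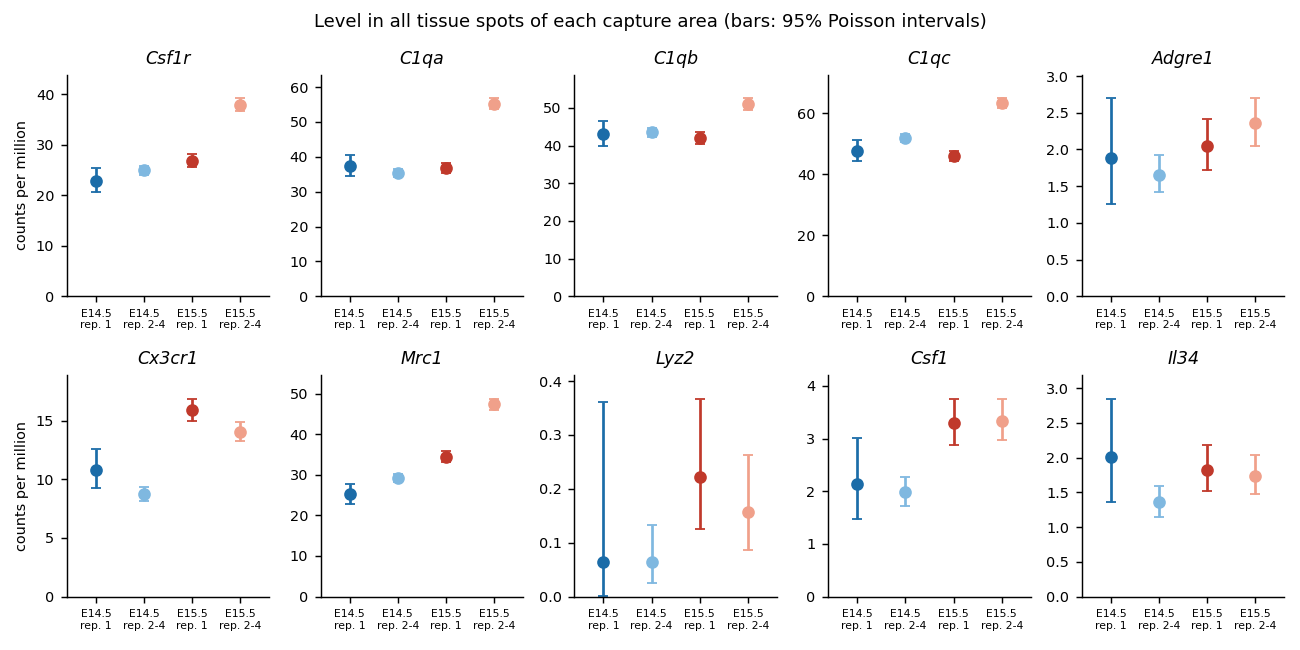
CPM of the 10 genes in all tissue spots of each capture area, with 95% Poisson intervals; blue points are E14.5 and red points E15.5, and each panel has its own axis from 0. Both E15.5 points lie above both E14.5 points for Csf1r, Adgre1, Cx3cr1, Mrc1 and Csf1, the points of Il34 overlap, and those of Lyz2 rest on 1 to 15 UMIs.

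By section the same members separated over all tissue spots. Cx3cr1 ran from 7.68 to 11.7 CPM over 4 E14.5 sections and from 13.1 to 15.9 CPM over 4 E15.5 sections, Csf1 from 1.75 to 2.92 and from 3.03 to 4.01 CPM, and Mrc1 from 25.2 to 31.6 and from 34.4 to 48.7 CPM. Csf1r ran from 22.9 to 26.6 and from 26.8 to 40.1 CPM, and Adgre1 from 1.64 to 1.88 and from 2.05 to 2.58 CPM. Of the sections of each stage, 3 shared a library, so these are not independent values. The share of all genes that separate in this way by section was not counted. The E14.5 sections held 119 to 331 brain spots, and the E15.5 sections 290, 217, 69 and 3. The E15.5 section with 3 brain spots had the highest levels of Csf1r, Mrc1, Csf1 and Adgre1. The share of UMIs from the brain, where these genes are lower, also differed between the areas (56.6% and 28.3% at E14.5, 29.2% and 9.54% at E15.5). Outside the brain, the stage differences were 0.39 ± 0.30 for Cx3cr1, 0.55 ± 0.38 for Csf1, 0.26 ± 0.24 for Mrc1 and 0.20 ± 0.26 for Csf1r on the log2 scale, with adjusted p of 1 in rounded terms; 0 of 15399 genes were called there by edgeR, with 333 at an unadjusted p under 0.05. In brain spots 0 of 13512 genes were called by edgeR, with 124 at an unadjusted p under 0.05. There Cx3cr1 differed by 0.45 ± 0.39 and Mrc1 by 0.08 ± 0.30.

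The difference between brain and other tissue was itself compared between the stages. None of 14894 genes was called by edgeR, with 417 at an unadjusted p under 0.05. The change in the brain difference was -1.21 ± 0.51 for Adgre1, 0.42 ± 0.24 for C1qa, -0.18 ± 0.23 for Mrc1 and 0.03 ± 0.27 for Cx3cr1 on the log2 scale.

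Across spots, the highest correlations among the members were those between Csf1r, the C1q genes and Mrc1. Correlations of log2 levels over the spots of an area, averaged over the 4 areas, were 0.35 between C1qc and Mrc1, 0.32 between C1qa and C1qc, 0.28 between Csf1r and Mrc1 and 0.20 between Cx3cr1 and Mrc1. With Csf1r, the sparser members gave 0.10 for Adgre1, 0.04 for Csf1, 0.04 for Lyz2 and 0.02 for Il34. These values describe 989 to 2310 spots that share a library, its depth and its tissue borders. Low counts hold them down, so they rank pairs only among genes of like counts.

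The genes most like Csf1r in this measure were Selenop (0.29), Stab1 (0.29), Mrc1 (0.28), Pf4 (0.28) and F13a1 (0.27). For the sum of the C1q genes they were Stab1 (0.44), Selenop (0.43), Col3a1 (0.41), Mrc1 (0.40) and Apoe (0.40), and for Mrc1 they were Pf4 (0.43), Stab1 (0.42), F13a1 (0.41), Selenop (0.40) and Col3a1 (0.38). Stab1, F13a1, Selenop, Mrc1 and Pf4 led for Cx3cr1, at 0.19 to 0.23. The genes nearest to Csf1 included Coq10b (0.13, with 0.35 in the E14.5 3-section area), Alpl (0.13), Phex (0.13) and Col5a2 (0.12). Alpl and Phex are genes of bone-forming cells. For Csf1 (at most 0.13), Il34 (Zbed5 at most, 0.15) and Lyz2 (Fcgr2b at most, 0.08) the values were too weak to read a pattern from them.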

How the data were processed

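The authors deposited, for each of 4 capture areas, raw UMI counts per gene and spot barcode, whole numbers and not normalized; per the file headers the matrices were written by Space Ranger 1.3.1 (single-section areas) and 2.0.0 (3-section areas), and the submitters' processing notes name build mm10. The fields of replicates 2, 3 and 4 were told apart by position, and their numbers were not assigned. Counts of tissue spots were summed per area, or per area and region, and tested with edgeR 4.0.16 (R 4.3.3; quasi-likelihood, TMM, filterByExpr, Benjamini-Hochberg over all genes tested, threshold 0.1), with area as a term between regions. DESeq2 1.42.0 was an alternative. The labels do not say that replicates were separate embryos, so p-values measure the spread between these areas. A spot was assigned to the marker list with the highest CPM relative to its 99th percentile, if at least 0.25 of it and 5 UMIs. Regions were tested with 20 or more spots in at least 3 areas. The fits were tested on simulated data. Members, lists and several tests were chosen with earlier results of these data known. Named were all 10 members, the 4 most counted genes of a list, and the 5 most alike genes, except a few that are not reported here. Other lists were counted with only some or none of their genes described. Of neutrophils and monocytes, 5 of 5 tested genes were lower in the brain, of lymphocytes 1 of 1 and of osteoclasts 8 of 9. In the fractalkine axis 1 of 3 was higher and 2 lower, and in the CSF1 receptor axis 1 of 8 was higher and 5 lower. The fractalkine axis includes the member Cx3cr1, and the CSF1 receptor axis includes Csf1r, Csf1 and Il34. Depth ran from 15438992 to 109127953 UMIs per area.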

Additional observations from a re-analysis of the deposited data

Results flagged for a closer look

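The matrices of the 3-section areas hold 19 barcodes outside the tissue that no comparison used. In the E14.5 area, 8 such barcodes held 112 UMIs of the 10 genes, or 534 CPM against 199 CPM in tissue spots. In the E15.5 area, 11 such barcodes held 85 UMIs, or 241 CPM against 276 CPM. Both counts are above the 3 that a count of 0 allows. No group had the 4 or more areas needed to test for a single deviating area, and no member was called for a change of its brain difference between the stages.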

How the results depend on the processing

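Of the alternative values for single genes, 566 kept their direction and side of the threshold, 45 lost and 1 gained a call, and 34 changed sign; the cause was not tested. Leaving out each area in turn gave 0 to 78 called genes for stage over all tissue, 2 to 27 in the brain, 0 to 30 outside it, 0 to 155 for the change of the brain difference and 1204 to 4897 at the brain edge. Called members ran from 1 to 5 at the edge, 2 to 7 between neurons and radial glia, and 9 to 22 over the other regions. DESeq2 called 28 genes for stage, and no count filter gave 42 in the brain. In the largest brain blocks, chosen after seeing the data, 1446 genes and 3 members were called at the edge.

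None of the values that changed sign was called. Without TMM, the stage difference in the brain was 0.014 for C1qc and 0.0081 for Csf1, and the brain difference of Il34 -0.024. Without the shallow section it was 0.0045 for Csf1 in the brain. With brain spots taken from 0.5 of the 99th percentile, the brain difference of Il34 was -0.078, and its change between the stages -0.18 for Csf1r, -0.092 for C1qb, -0.096 for C1qc and -0.17 for Cx3cr1.

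With areas left out in turn, the stage difference ran from -0.029 to 0.54 for C1qa, -0.086 to 0.17 for C1qb, -0.16 to 0.27 for C1qc and -0.19 to 0.29 for Il34. In the brain it ran from -0.19 to 0.034 for C1qb, -0.12 to 0.068 for C1qc and -0.40 to 0.20 for Csf1. Outside it, the range was -0.022 to 0.40 for Csf1r, -0.32 to 0.18 for C1qa, -0.31 to 0.12 for C1qc and -0.049 to 0.47 for Adgre1. The brain difference of Il34 ran from -0.038 to 0.27. Its change between the stages ran from -0.23 to 0.19 for Csf1r, -0.13 to 0.26 for C1qb, -0.20 to 0.28 for C1qc and -0.15 to 0.13 for Cx3cr1.

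The share of spots with a Csf1r UMI was 5.01%, 5.13%, 6.07% and 8.26% at 2000 UMIs per spot and 21.7%, 53.2%, 73.1% and 69.1% without thinning. Beside a replicate number, the replicate 1 areas share a single-section layout and a Space Ranger version, as the 3-section areas do theirs, and these cannot be told apart. The deviations of both replicate 1 areas correlated at 0.25 over genes. A fit with the replicate number as a block called 0 genes for stage over all tissue, 23 in the brain and 4 outside it.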

Other observations

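The split of UMIs among the 3 C1q genes varied between regions and areas. C1qa made up 27.8% to 33.1% of the C1q UMIs in connective tissue mesenchyme, 20.1%, 22.4%, 25.9% and 34.9% in radial glia of the 4 areas, and 35.1% (95% interval 29.6% to 40.9%, 285 UMIs) and 43.4% (36.9% to 50.1%, 228 UMIs) in lens spots of the E14.5 and E15.5 3-section areas. In skeletal muscle it was 49.3% (37.6% to 61.1%, 75 UMIs) in the E14.5 single-section area and 26.9%, 32.2% and 31.5% in the other areas. These shares were picked out after they had been seen and were not tested.

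The CSF1 receptor axis held 2 genes of other IL-34 binding proteins. Ptprz1, a receptor phosphatase of neural progenitors, was higher in the brain by 2.38 ± 0.23 on the log2 scale, and Sdc1, an epithelial syndecan, was at -1.81 ± 0.08 there. Csf2ra was at -0.05 ± 0.09 and was not called.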
